A study of Mus musculus and Rattus norvegicus with 14 samples.

Results

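Matrix metalloproteinases (MMPs), their tissue inhibitors (TIMPs), and the ADAM, ADAMTS and ADAMTS-like proteins were described at the level of messenger RNA in mouse hearts and in rat heart cells. The members were all protein-coding genes whose name begins with Mmp, Timp, Adam, Adamts or Adamtsl followed by a digit, 83 of 54532 genes in the mouse table and 74 of 33600 genes in the rat table. No measured value entered this rule, but it was chosen with earlier results of these data known.

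The mouse libraries formed groups of 3, labelled LQ-40, SQ-3, Model and Sham. The study set the compounds LQ-40 and SQ-3, known here by code name, side by side for effects on myocardial fibrosis with their structural similarity in view. Doses and structures were not given in the sources used here. The labels give the tissue as heart and the treatment as the group name, without strain, age, sex, model procedure or time. Whether LQ-40 and SQ-3 hearts received the model procedure is not stated. Whether libraries within a group stem from different animals is not stated either, and p-values then measure the spread between these samples alone, possibly technical. The rat libraries, 1 of each kind, were labelled as mixtures of cardiac fibroblasts, primary cardiomyocytes and macrophages from bone marrow, either a 3D culture named 3D-OGD-MF in the design text or as 2D cells mixed 1:1:1.

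MMPs are zinc enzymes that cut collagens, gelatins and other matrix proteins outside the cell, and most are made as inactive precursors. TIMPs occupy the active site of MMPs and of some ADAM and ADAMTS enzymes. ADAMs are mainly membrane-bound enzymes that release the outer parts of cell surface proteins, ADAMTS enzymes are secreted and process procollagens or cut proteoglycans, and ADAMTS-like proteins share the non-catalytic modules of ADAMTS enzymes without a protease domain. In the heart the balance of these enzymes and inhibitors is known as a part of matrix turnover in scars and fibrosis.

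The zinc site is a mark of classical metalloproteases, so the coding stretch behind it is shown for members on which the results turn. It was searched in translated GENCODE M21 coding sequences (GRCm38, the assembly also called mm10) as HExxHxxGxxH, where x is any residue, or with N in place of G. All 22 mouse MMPs held it, as did 20 of 33 ADAMs and 18 of 19 ADAMTS genes, and none of the 4 TIMPs or 5 ADAMTS-like genes did. The ADAMTS sites had G at the variable place in 13 genes and N in 5 genes, namely Adamts1, Adamts4, Adamts9, Adamts15 and Adamts20. The ADAMTS gene without a match was Adamts8. The search allowed only G or N at that place, so a gene without a match is not shown to lack a zinc site. Capitals mark the codons of the 3 histidines that hold the zinc in the following coding-strand stretches of 33 bases.
Mmp2 (chr8:92839279-92839311, plus strand): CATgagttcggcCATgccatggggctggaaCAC
Mmp14 (chr14:54437627-54437659, plus strand): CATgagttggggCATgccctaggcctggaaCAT
Adamts2 (chr11:50775403-50776134, plus strand, split by an intron): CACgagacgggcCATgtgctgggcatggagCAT
Adamts4 (chr1:171253210-171253915, plus strand, split by an intron): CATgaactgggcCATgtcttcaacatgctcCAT
Adamts5 (chr16:85878015-85887826, minus strand, split by introns): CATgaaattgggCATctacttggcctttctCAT
Adam17 (chr12:21336732-21336764, minus strand): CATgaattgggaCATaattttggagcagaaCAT
Adam19 (chr11:46125050-46125082, plus strand): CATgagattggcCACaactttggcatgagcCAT

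The values are FPKM (reads per kilobase of gene, set relative to the size of the library) divided by a scaling factor for each library, called scaled FPKM. Testing required a minimum of 1 FPKM in 3 or more of the 12 mouse libraries, and a gene was called when its adjusted p in limma, over all 13000 genes tested, was under 0.05. Of the 83 members 41 were tested. Of the 42 others, 13 had 0 reads in every library, 15 had 1 to 30 reads over all 12 libraries, and 14 had more. The untested members included 25 of the 33 ADAMs, 10 of them with 0 reads, and all 3 interstitial collagenases in the table. Every TIMP and every ADAMTS-like gene was tested. Because a member could pass through the group in which it was high, 7 tested members reached 1 FPKM in no Sham library, and 27 reached it in all 12 libraries.

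The mouse libraries held 13085370 to 16698987 reads recovered from the deposited values. Mitochondrial transcripts took 21.2%, 15.5% and 11.1% of reads in LQ-40 libraries 1, 2 and 3, 15.2% to 20.1% in SQ-3 hearts, 10.8% to 15.3% in Model hearts and 14.6% to 23.6% in Sham hearts. LQ-40 library 1 stood apart from its group: on the first principal component it lay at 20.6, against -16.0 and -34.4 for LQ-40 libraries 2 and 3. The Model libraries lay between -36.2 and -26.3, the SQ-3 libraries between -17.7 and -0.2, and the Sham libraries between 43.8 and 52.5.

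Model hearts had more protease and inhibitor transcripts than Sham hearts. Of the 41 tested members 24 rose and 2 fell, that is 63.4%, where 38.9% of all tested genes were called. The share of members called higher was 58.5%, against a background of 20.9%, and the share called lower was 4.88%, against 18%. The median log2 change of the tested members was 0.81, and that of all tested genes was 0.025. The 3 Model libraries lay above all 3 Sham libraries for 28 members (background 29.8% of genes) and below them for 3 members (background 25.7%), with 55.5% of all tested genes apart in either direction. Among the 27 members at 1 FPKM or more in all libraries 19 rose, and the share that rose among all genes at that level was not counted. Fold changes come from log2(scaled FPKM + 1) values, so those of low genes are understated.

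**Figure D1:**
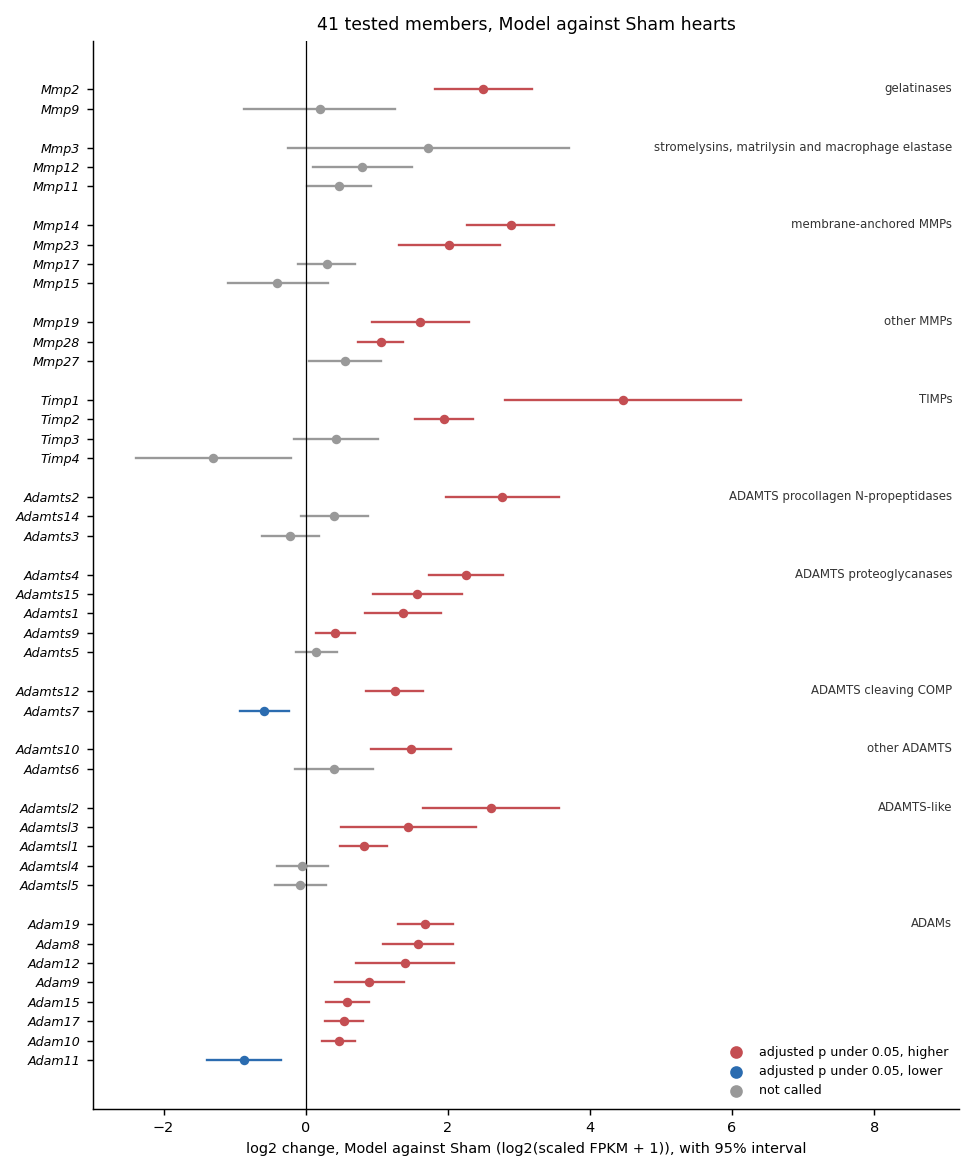
Log2 change of the 41 tested members in Model against Sham hearts with its 95% interval, grouped by subfamily from top to bottom. Red marks the 24 members called higher and blue the 2 called lower; the change of Timp1, 4.46, lies farthest to the right.

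Cell type markers moved as well, and because these are bulk samples, a change in the number of cells of a type cannot be told apart from a change in RNA per cell. All 8 fibroblast markers rose in Model hearts, with sums of 2400 to 2590 scaled FPKM in Model and 519 to 560 in Sham libraries. Of 8 macrophage markers 6 rose, with sums of 764 to 1130 in Model and 365 to 558 in Sham. Of 7 cardiomyocyte markers 6 fell, with sums of 8110 to 9750 in Model and 16200 to 17800 in Sham. Of 7 cartilage and tendon markers 5 were tested and all 5 rose, with sums of 127 to 271 in Model and 3.50 to 4.69 in Sham. Of 5 mesothelial markers 3 rose. The part of these cell types in the protease changes was not tested.

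The 4 TIMPs did not share a direction. Timp1, a secreted inhibitor induced in many injured tissues (chrX:20870166-20874735, mm10), had 70.6, 82.2 and 99.3 scaled FPKM in Model hearts, against 1.94, 2.84 and 3.94 in Sham hearts. The groups were far apart, and Timp1 rose 22.1-fold (log2 4.46, SE 0.75, adjusted p = 0.00205). Timp2, which also helps Mmp14 to activate the Mmp2 precursor (chr11:118301069-118355740), had 207, 210 and 222 scaled FPKM in Model hearts, against 53.3, 54.1 and 55.8 in Sham hearts. It rose 3.86-fold with little spread within either group (log2 1.95, SE 0.18, adjusted p = 0.000121).

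Timp3, the matrix-bound inhibitor that also acts on ADAM17 (chr10:86300372-86349506), had 37.7, 39.9 and 45.03 scaled FPKM in Model hearts, against 21.5, 29.7 and 42.1 in Sham hearts. The groups overlapped and Timp3 was not called (log2 0.43, SE 0.27, adjusted p = 0.224). Timp4, the TIMP known for its high level in heart (chr6:115241892-115252205), had 4.16, 8.49 and 11.2 scaled FPKM in Model hearts, against 16.2, 16.3 and 28.8 in Sham hearts. Every Model library lay below every Sham library, but the change of -1.30 on the log2 scale missed the threshold (SE 0.49, adjusted p = 0.0577). It was called in 4 of 20 alternative analyses, with adjusted p between 0.0101 and 0.201. Exons of Timp3 share 21.3% of their bases with Syn3 on the other strand and those of Timp4 share 1.5% with Syn2, and the strand setting used in counting is not stated, so part of these reads could belong to the neighbour. Timp1 lies inside Syn1 but shares no exon base with it.

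**Figure D2:**
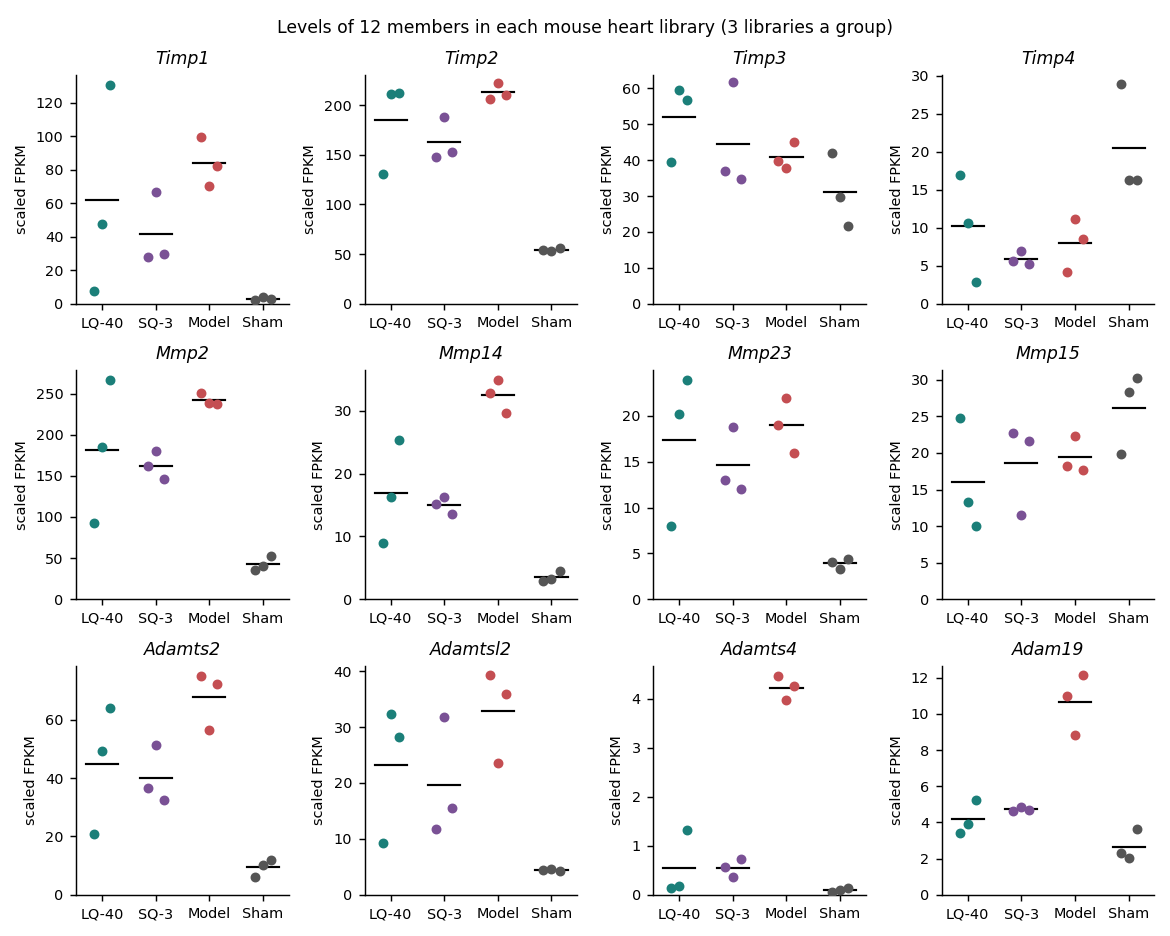
Scaled FPKM of 12 members in each mouse heart library on linear axes that start at 0, with the group mean as a bar. Timp1, Timp2, Mmp2, Mmp14, Mmp23, Adamts2, Adamtsl2, Adamts4 and Adam19 were called higher in Model than in Sham hearts, and only Adamts4 and Adam19 were called lower in LQ-40 and SQ-3 than in Model hearts.

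Among the gelatinases, which cut denatured collagen and basement membrane collagen, Mmp2 and Mmp9 differed. Mmp2 (chr8:92827291-92853420) had 237, 239 and 251 scaled FPKM in Model hearts, against 35.03, 40.6 and 52.3 in Sham hearts. It rose 5.65-fold (log2 2.5, SE 0.31, adjusted p = 0.000501) and had the highest mean of all members in Model hearts. Mmp9, an enzyme stored in neutrophil granules, stayed at 0.216, 0.462 and 1.01 scaled FPKM in Model hearts, against 0.211, 0.378 and 0.420 in Sham hearts. The groups overlapped (log2 0.20, SE 0.48, adjusted p = 0.773).

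Of the membrane-anchored MMPs 4 of 7 were tested and 2 rose. Mmp14, the main membrane-type collagenase and the activator of the Mmp2 precursor (chr14:54431612-54445364), had 29.7, 32.9 and 34.9 scaled FPKM in Model hearts, against 2.89, 3.25 and 4.56 in Sham hearts. It rose 7.41-fold (log2 2.89, SE 0.28, adjusted p = 0.000131). Mmp23 (chr4:155650655-155653384) had 16.0, 19.0 and 22.0 scaled FPKM in Model hearts, against 3.25, 4.04 and 4.44 in Sham hearts. It rose 4.06-fold without overlap of the groups (adjusted p = 0.0016). Mmp15, a membrane-type MMP related to Mmp14, had 17.7, 18.2 and 22.4 scaled FPKM in Model hearts, against 19.9, 28.4 and 30.3 in Sham hearts, and its groups overlapped (log2 -0.40, adjusted p = 0.346). Mmp17, a GPI-anchored MMP, had 0.791, 1.27 and 1.34 scaled FPKM in Model hearts, against 0.484, 0.508 and 1.31 in Sham hearts, and was not called (log2 0.29, adjusted p = 0.217).

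The stromelysin group was low, and none of its 3 tested genes was called by limma, although 2 had an unadjusted p under 0.05 and limma-voom on recovered reads called Mmp12. Mmp3, stromelysin 1, had 4.81, 6.46 and 18.6 scaled FPKM in Model hearts, against 0.174, 2.61 and 4.54 in Sham hearts. The groups touched without overlap and both were widely spread (log2 1.73, SE 0.89, adjusted p = 0.146). Mmp12, the elastase of macrophages, had 0.471, 0.766 and 1.39 scaled FPKM in Model hearts, against 0.0412, 0.0435 and 0.0972 in Sham hearts. The groups were apart at a low level, 58, 95 and 150 reads against 4, 4 and 9 (log2 0.79, adjusted p = 0.0669, range over alternatives 0.0139 to 0.202). Mmp11, stromelysin 3, had 2.67, 4.52 and 4.91 scaled FPKM in Model hearts, against 2.15, 2.52 and 3.07 in Sham hearts, and its groups overlapped (log2 0.47, adjusted p = 0.0894).

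Of the other MMPs Mmp19 and Mmp28 rose. Mmp28, epilysin, had 3.36, 3.39 and 3.58 scaled FPKM in Model hearts, against 0.981, 1.05 and 1.42 in Sham hearts (2.07-fold, adjusted p = 0.000854). Mmp19 had 5.31, 5.48 and 11.96 scaled FPKM in Model hearts, against 1.33, 1.41 and 2.29 in Sham hearts (3.06-fold, adjusted p = 0.00363). For both genes the groups were apart. Exons of Mmp19 and Mmp28 share 28.3% and 12% of their bases with genes on the other strand, so their values are uncertain. Mmp27 had 0.475, 0.559 and 1.06 scaled FPKM in Model hearts, against 0.0712, 0.101 and 0.283 in Sham hearts, and was not called (log2 0.55, adjusted p = 0.0803).

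Among the ADAMTS enzymes that remove the N-propeptide of procollagens 1 of 3 rose. Adamts2, the main procollagen I N-propeptidase (chr11:50602084-50807573), had 56.5, 72.3 and 75.2 scaled FPKM in Model hearts, against 6.21, 10.1 and 11.8 in Sham hearts. It rose 6.80-fold (log2 2.77, SE 0.36, adjusted p = 0.000678). Adamts14 had 1.13, 1.23 and 1.76 scaled FPKM in Model hearts, against 0.574, 0.632 and 1.21 in Sham hearts, with overlap (log2 0.40, adjusted p = 0.157). Adamts3, which cuts procollagen II and the VEGF-C precursor, had 0.902, 0.931 and 1.13 scaled FPKM in Model hearts, against 0.907, 1.304 and 1.78 in Sham hearts (log2 -0.22, adjusted p = 0.361).

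Of the 7 ADAMTS proteoglycanases, which cut aggrecan and versican, 5 were tested and 4 rose. Adamts4, aggrecanase 1 (chr1:171250421-171260637), had 3.97, 4.25 and 4.45 scaled FPKM in Model hearts, against 0.0488, 0.0930 and 0.147 in Sham hearts. These values rest on 284 to 367 reads in each Model library and on 3, 6 and 9 reads in the Sham libraries. Adamts4 rose 4.76-fold on the log2(scaled FPKM + 1) scale (log2 2.25, SE 0.24, adjusted p = 0.000214), while the ratio of the group means was 43.8. Adamts1, a secreted versican-cutting enzyme, had 24.1, 29.6 and 31.6 scaled FPKM in Model hearts, against 8.08, 9.90 and 13.7 in Sham hearts (2.58-fold, adjusted p = 0.00253).

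Adamts15 had 3.98, 4.07 and 8.31 scaled FPKM in Model hearts, against 1.01, 1.07 and 1.15 in Sham hearts (2.97-fold, adjusted p = 0.00281). Exons of Adamts9 share 12% of their bases with genes on the other strand, so its values are uncertain. Adamts9 had 3.19, 4.16 and 4.35 scaled FPKM in Model hearts, against 2.499, 2.58 and 2.88 in Sham hearts. Its change was small (1.34-fold, adjusted p = 0.0232) and its call was lost in 6 of 19 alternatives, among them those without Model library 2, without Model library 3, without Sham library 1 and without Sham library 3. Adamts5, aggrecanase 2, lies beside Adamts1 on chromosome 16, and its groups overlapped. It had 6.69, 6.86 and 7.98 scaled FPKM in Model hearts, against 5.74, 6.39 and 6.95 in Sham hearts (log2 0.15, SE 0.13, adjusted p = 0.368). Set beside the zinc site, 4 of the 4 tested ADAMTS genes with N at the variable place rose, and 3 of the 8 with G rose and 1 fell, a description without a test.

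Adamts7 and Adamts12, relatives that both cut the cartilage matrix protein COMP, went in opposite directions. Adamts12 had 3.72, 4.30 and 4.61 scaled FPKM in Model hearts, against 0.830, 1.33 and 1.45 in Sham hearts, and rose 2.38-fold (adjusted p = 0.000999). Adamts7 had 2.90, 3.13 and 3.60 scaled FPKM in Model hearts, against 4.79, 5.31 and 5.81 in Sham hearts. It fell by 0.58 on the log2 scale (adjusted p = 0.0153), and this call was lost without Model library 3 and without Sham library 2, where the highest adjusted p was 0.0543. Comp itself, a member of the cartilage and tendon marker list, had 101, 228 and 232 scaled FPKM in Model hearts, against 0.817, 0.928 and 1.11 in Sham hearts.

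Of the other ADAMTS genes 2 of 7 were tested. Adamts10, which binds fibrillin microfibrils, had 13.2, 19.97 and 26.7 scaled FPKM in Model hearts, against 5.50, 6.22 and 7.07 in Sham hearts (2.79-fold, adjusted p = 0.00233). Its close relative Adamts6 had 1.31, 1.61 and 1.89 scaled FPKM in Model hearts, against 0.842, 0.898 and 1.17 in Sham hearts. The Adamts6 groups were apart, but the change was not called (log2 0.40, adjusted p = 0.219).

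Of the 5 ADAMTS-like genes 3 rose. Adamtsl2, a microfibril-associated protein that binds latent TGF-beta binding protein (chr2:27079379-27108981), had 23.6, 35.9 and 39.2 scaled FPKM in Model hearts, against 4.26, 4.34 and 4.68 in Sham hearts. It rose 6.11-fold (log2 2.61, SE 0.44, adjusted p = 0.00195). Adamtsl3 had 3.17, 5.48 and 5.77 scaled FPKM in Model hearts, against 1.01, 1.02 and 1.23 in Sham hearts (2.72-fold, adjusted p = 0.0227). The Adamtsl3 call was lost in 6 of 19 alternatives, where adjusted p reached 0.0763, among them those without Model library 1 or 3 and without any 1 of the Sham libraries.

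Adamtsl1 had 1.36, 1.40 and 2.30 scaled FPKM in Model hearts, against 0.391, 0.502 and 0.647 in Sham hearts (1.76-fold, adjusted p = 0.00291). Adamtsl4 and Adamtsl5, which bind fibrillin microfibrils, were at similar levels in both groups, with overlap. Adamtsl4 had 12.7, 14.3 and 14.6 scaled FPKM in Model hearts, against 12.7, 14.3 and 16.4 in Sham hearts (95% interval of the log2 change -0.41 to 0.31). Adamtsl5 had 16.1, 20.5 and 22.0 scaled FPKM in Model hearts, against 16.6, 22.5 and 23.0 in Sham hearts (95% interval -0.43 to 0.28).

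All 8 tested ADAMs were called, 7 higher and 1 lower. Adam19, a sheddase known from heart valve development in mice (chr11:46055992-46147343), had 8.85, 10.99 and 12.2 scaled FPKM in Model hearts, against 2.05, 2.29 and 3.66 in Sham hearts. It rose 3.22-fold (log2 1.69, SE 0.18, adjusted p = 0.000199). Adam8, a leukocyte ADAM (chr7:139978932-139992562), had 2.72, 2.72 and 2.83 scaled FPKM in Model hearts, against 0.135, 0.241 and 0.407 in Sham hearts (2.99-fold, adjusted p = 0.000916). Adam12, which is induced in activated mesenchymal cells, had 1.43, 2.28 and 3.45 scaled FPKM in Model hearts, against 0.141, 0.207 and 0.424 in Sham hearts (2.63-fold, adjusted p = 0.00685).

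The general sheddases changed less. Adam17, which releases TNF and ligands of the EGF receptor (chr12:21323509-21373632), had 15.8, 17.6 and 18.4 scaled FPKM in Model hearts, against 10.5, 11.2 and 13.1 in Sham hearts (1.45-fold, adjusted p = 0.00646). Adam10, which cuts Notch receptors and many other surface proteins, had 25.1, 25.4 and 26.5 scaled FPKM in Model hearts, against 17.3, 18.3 and 19.4 in Sham hearts (1.38-fold, adjusted p = 0.007). Adam9 had a mean of 37.4 ± 4.07 scaled FPKM in Model hearts, against 19.6 ± 0.461 in Sham hearts (SD, n = 3 each), a 1.86-fold rise (adjusted p = 0.00943). Adam15 rose 1.5-fold (adjusted p = 0.00811), with 20.6% of its exon bases shared with a gene on the other strand. Adam11, known as a neuronal adhesion protein, was the tested ADAM without a match to the zinc site. It had a mean of 1.13 ± 0.306 scaled FPKM in Model hearts, against 2.87 ± 0.364 in Sham hearts (SD, n = 3 each). Adam11 fell by 0.87 on the log2 scale (adjusted p = 0.0158). The Adam11 call was lost without Model library 1, without Model library 3 and without Sham library 2, where the highest adjusted p was 0.0559.

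FPKM are per length, so levels can be ordered between members. In Model hearts the highest means were those of Mmp2 (242 ± 7.28 scaled FPKM), Timp2 (213 ± 8.32), Timp1 (84.0 ± 14.5) and Adamts2 (68.0 ± 10.1). In Sham hearts they were those of Timp2 (54.4 ± 1.32), Mmp2 (42.6 ± 8.79), Timp3 (31.1 ± 10.3) and Mmp15 (26.2 ± 5.56; SD, n = 3 for all), and Mmp2 and Timp3, like Timp3 and Mmp15, did not differ beyond their spread. Timp1 held place 3 in Model hearts and place 20 in Sham hearts. Summed over all 22 MMPs the level was 343 ± 16.1 scaled FPKM in Model hearts, against 87.0 ± 17.8 in Sham hearts, and summed over the 4 TIMPs it was 346 ± 4.07 in Model and 109 ± 16.0 in Sham hearts. The 19 ADAMTS genes summed to 152 ± 9.02 scaled FPKM in Model hearts, against 47.1 ± 2.52 in Sham hearts, and the 33 ADAMs to 119 ± 5.12 in Model and 69.9 ± 4.99 in Sham hearts. These sums are given as a description without a test, and those of the MMPs and TIMPs rest to a large part on Mmp2 and Timp2.

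Other genes of the protease system were read from a list of 43 activators, inhibitors, partners and further matrix proteases, of which 34 were tested. In Model against Sham hearts 24 of the 34 rose and 2 fell, where 20.9% of all tested genes were called higher and 18% lower. The tissue plasminogen activator gene Plat rose 2.89-fold (adjusted p = 0.000313), the secreted protease gene Htra3 2.44-fold (adjusted p = 0.00034), and Bmp1, which removes the C-propeptide of procollagens, 4.01-fold (adjusted p = 0.000802). Plaur, the receptor of urokinase, rose 2.16-fold (adjusted p = 0.000919). Of 8 tested inhibitors 7 rose, and of 6 tested partners of ADAM10 and ADAM17 (iRhoms and tetraspanins) 4 rose. The members that fell were Tll2, a relative of Bmp1, by 0.93 on the log2 scale (adjusted p = 0.00462), and Bsg, an inducer of MMPs, by 0.56 (adjusted p = 0.017).

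The compounds were compared with Model hearts next, and the tests of LQ-40 and SQ-3 against Model share the 3 Model libraries. Of the 41 tested members 0 rose and 2 fell in LQ-40 hearts, that is 4.88%, where 0.669% of all tested genes were called, 0.185% higher and 0.485% lower. In SQ-3 hearts 0 rose and 2 fell, again 4.88%, where 0.346% of all tested genes were called, 0.0769% higher and 0.269% lower. At an unadjusted p under 0.05 in limma there were 12 members in LQ-40 and 13 in SQ-3 against Model. The share of all tested genes at that level was not counted for these comparisons, so no excess is read from these counts. The called members were Adamts4 and Adam19 in each comparison.

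Adamts4 had 0.129, 0.171 and 1.32 scaled FPKM in LQ-40 hearts and 0.369, 0.562 and 0.723 in SQ-3 hearts, against 3.97, 4.25 and 4.45 in Model hearts. Every LQ-40 and SQ-3 library lay below every Model library. Adamts4 fell by 1.84 on the log2 scale in LQ-40 hearts (SE 0.24, adjusted p = 0.00612) and by 1.76 in SQ-3 hearts (SE 0.24, adjusted p = 0.0113). Against Sham hearts it was not called in LQ-40 hearts (log2 0.41, 95% interval -0.12 to 0.93, adjusted p = 0.239) or in SQ-3 hearts (log2 0.50, 95% interval -0.03 to 1.02, adjusted p = 0.199). The LQ-40 call was lost when only the groups compared were fitted (adjusted p = 0.138). The SQ-3 call was lost with a pseudocount of 0.1 (adjusted p = 0.114), without Model library 1 (0.0663), without Model library 3 (0.0694), without SQ-3 library 1 (0.0634) and without SQ-3 library 2 (0.0519).

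Adam19 had 3.44, 3.93 and 5.24 scaled FPKM in LQ-40 hearts and 4.63, 4.67 and 4.86 in SQ-3 hearts, against 8.85, 10.99 and 12.2 in Model hearts. No LQ-40 or SQ-3 library reached the lowest Model library. Adam19 fell by 1.17 on the log2 scale in LQ-40 hearts (SE 0.18, adjusted p = 0.0129) and by 1.02 in SQ-3 hearts (SE 0.18, adjusted p = 0.0392). Against Sham hearts it was higher in SQ-3 hearts (log2 0.67, adjusted p = 0.0461), and it was not called in LQ-40 hearts (log2 0.52, adjusted p = 0.0636). The LQ-40 call was lost in 5 of 20 alternatives: with only the groups compared (adjusted p = 0.121), without Model library 1 (0.0546), without Model library 3 (0.0767), without LQ-40 library 1 (0.0526) and without LQ-40 library 2 (0.0601). The SQ-3 call was lost in 11 of 20 alternatives, with adjusted p up to 0.188 without Model library 3, and these include the removal of any 1 Model or SQ-3 library, of LQ-40 library 2, and of Sham library 1 or 2. Exons of Adam19 share 10.1% and those of Adamts4 share 3.6% of their bases with genes on the other strand.

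Cell type markers were read beside these calls. In limma 0 of the 50 tested markers of all cell types were called in LQ-40 or SQ-3 against Model, with 9 in LQ-40 and 4 in SQ-3 at an unadjusted p under 0.05. Of the 8 fibroblast markers these were 0 in LQ-40 and 2 in SQ-3. The fibroblast sums were 936, 1910 and 2760 scaled FPKM in LQ-40 libraries 1, 2 and 3 and 1420, 1470 and 1900 in the SQ-3 libraries, against 2400 to 2590 in Model libraries. The part of these sums in the change of Adamts4 and Adam19 was not tested. In LQ-40 libraries 1, 2 and 3 Adamts4 was at 0.129, 0.171 and 1.32 and Adam19 at 3.44, 3.93 and 5.24 scaled FPKM. Both genes were thus highest in library 3, which had the highest fibroblast sum of the group, and stayed below every Model library. In SQ-3 library 2, with the highest fibroblast sum of its group but the lowest Col1a1 value (288), Adamts4 was lowest (0.369) and Adam19 highest (4.86).

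**Figure D3:**
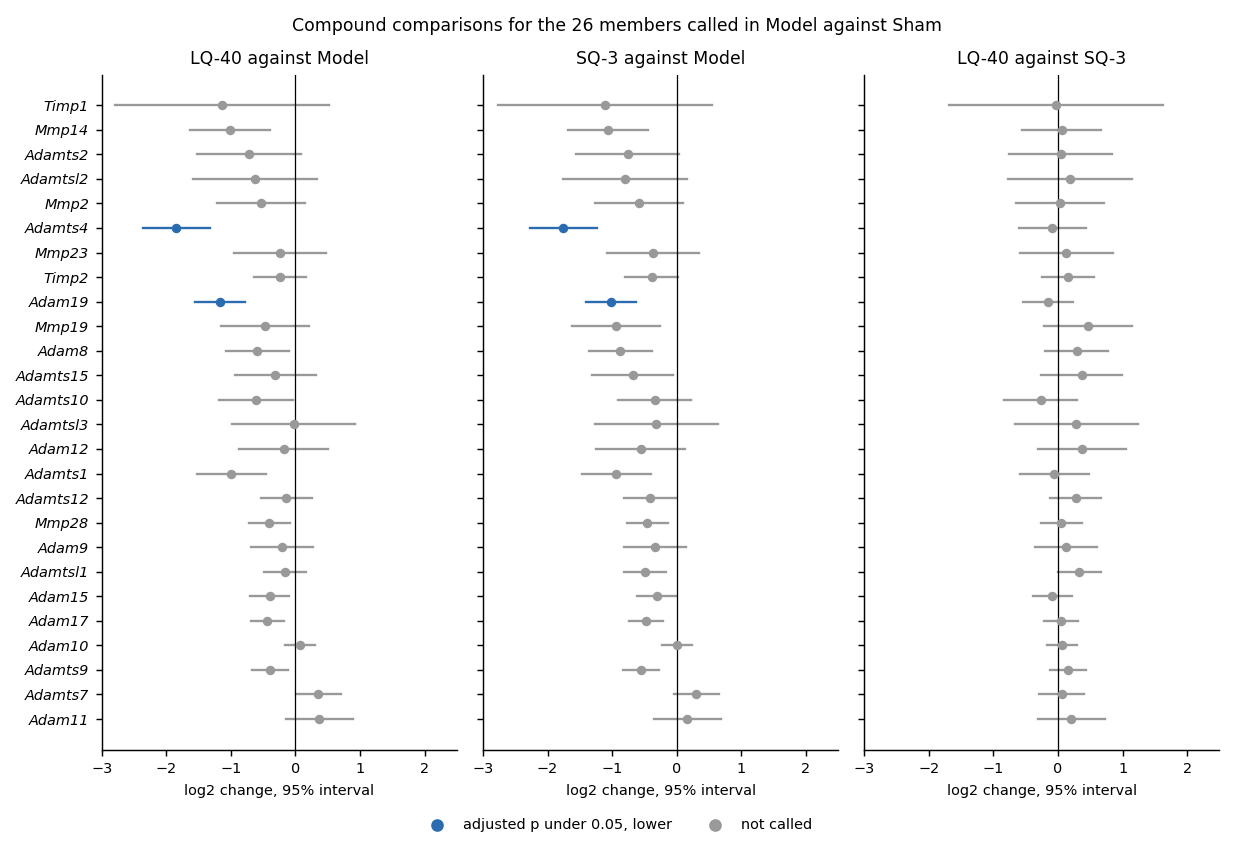
Log2 change with 95% interval of the 26 members called in Model against Sham hearts, for LQ-40 against Model (left), SQ-3 against Model (centre) and LQ-40 against SQ-3 (right), ordered by their change in Model against Sham hearts. Blue marks Adamts4 and Adam19, the members called lower against Model; no member was called between the compounds.

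The other members that rose in Model hearts were not called against Model in either compound group. Timp1 had 7.77, 47.7 and 130 scaled FPKM in LQ-40 libraries 1, 2 and 3 and 27.6, 29.8 and 66.5 in SQ-3 hearts, against 70.6 to 99.3 in Model hearts. The LQ-40 libraries spanned the Model range on both sides, while the SQ-3 libraries lay below it. Its change was -1.14 in LQ-40 (95% interval -2.80 to 0.52, adjusted p = 0.592) and -1.11 in SQ-3 hearts (95% interval -2.77 to 0.55, adjusted p = 0.488). Mmp14 had 8.96, 16.3 and 25.4 scaled FPKM in LQ-40 hearts and 13.6, 15.1 and 16.2 in SQ-3 hearts, against 29.7 to 34.9 in Model hearts. All compound libraries lay below all Model libraries for Mmp14, and the changes of -1.01 (adjusted p = 0.153) and -1.07 (adjusted p = 0.16) missed the threshold.

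Mmp2 had 92.6, 185 and 267 scaled FPKM in LQ-40 hearts and 146, 162 and 180 in SQ-3 hearts, against 237 to 251 in Model hearts. Its changes were -0.54 in LQ-40 (95% interval -1.22 to 0.14) and -0.58 in SQ-3 hearts (95% interval -1.26 to 0.10). Adamts1 had 10.6, 13.6 and 17.8 scaled FPKM in LQ-40 hearts and 11.2, 13.2 and 19.6 in SQ-3 hearts, against 24.1 to 31.6 in Model hearts. The compound libraries were all lower, but the changes of -0.996 (adjusted p = 0.104) and -0.94 (adjusted p = 0.157) missed the threshold. Over all tested members the LQ-40 libraries lay below the Model libraries without overlap for 8 (background 10.8% of genes) and above for 2 (background 7.28%; 18.1% either way), and the SQ-3 libraries lay below for 19 (background 14.3%) and above for 0 (background 12.1%; 26.4% either way). The members above in LQ-40 were Adamts5 and Adamts7, named after their values were seen.

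Libraries of the LQ-40 group differed widely. Of the 24 members that rose in Model hearts, LQ-40 library 1 had the lowest value of its group for 20, and LQ-40 library 3 had the highest for 20. The summed MMP level was 148, 256 and 374 scaled FPKM in LQ-40 libraries 1, 2 and 3, against 325 to 356 in Model and 70.4 to 106 in Sham libraries. The summed TIMP level was 195, 329 and 402 in those LQ-40 libraries, against 342 to 350 in Model and 96.5 to 127 in Sham libraries. Without LQ-40 library 1 the members called in LQ-40 against Model numbered 1, and 5 members were called in SQ-3 against Model, the added ones being Mmp14 (adjusted p = 0.0251), Adam8 (adjusted p = 0.0324) and Adamts9 (adjusted p = 0.0392). Over all 13000 genes, removal of that library moved the calls to 50 in LQ-40 against Model, from 87 in the full fit, and to 142 in SQ-3 against Model, from 45.

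Against Sham hearts, 19 members were higher and 0 lower in LQ-40 hearts (46.3% called, where 15.8% of all tested genes were called, 9.83% higher and 5.93% lower). In SQ-3 hearts 12 were higher and 0 lower (29.3% called, where 6.71% of all tested genes were called, 4.88% higher and 1.83% lower). Without overlap, LQ-40 libraries lay above Sham libraries for 22 members (background 19.2% of genes) and below for 0 (14%; 33.2% either way), and SQ-3 libraries lay above for 24 (20.2%) and below for 3 (16.4%; 36.6% either way). These comparisons share the Sham libraries with that of Model against Sham. Timp2 was 3.27-fold higher in LQ-40 (adjusted p = 0.000976) and 2.95-fold higher in SQ-3 hearts (adjusted p = 0.00124), and Mmp2 was 3.88-fold (adjusted p = 0.00586) and 3.78-fold higher (adjusted p = 0.00737). Timp1 was 10-fold higher in LQ-40 (adjusted p = 0.0209) and 10.2-fold higher in SQ-3 hearts (adjusted p = 0.0287). The count for LQ-40 was 26 without LQ-40 library 1, 8 without LQ-40 library 2, 8 without LQ-40 library 3, 7 without Sham library 1 and 8 without Sham library 2. Over all 13000 genes the calls moved likewise, with 2049 in the full fit and 4372, 412, 523, 519 and 650 in those settings. The count for SQ-3 was 5, 3 and 5 without SQ-3 libraries 1, 2 and 3, 3 without Sham library 1 and 4 without Sham library 2, and over all genes the 872 calls became 321, 247, 252, 261 and 227.

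The direct comparison of LQ-40 with SQ-3 called 0 of 41 members, and 0% of all tested genes were called. At an unadjusted p under 0.05 in limma there was 1 member, Adamtsl1, and 394 genes in all (3.03%), and limma-voom gave 0 members as well. All 41 members were compared between the compounds, with p-values adjusted over all 13000 genes. Adamtsl1 had 1.23, 1.37 and 1.55 scaled FPKM in LQ-40 hearts, against 0.7495, 0.929 and 1.01 in SQ-3 hearts (log2 0.33, 95% interval 0.0013 to 0.66, adjusted p = 1). The LQ-40 libraries lay above the SQ-3 libraries for Adamtsl1 and Mmp17 and below them for Mmp11, where 3.62% of all tested genes lay above and 2.5% below, 6.12% in all.

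For Adamts4 the difference between LQ-40 and SQ-3 hearts was -0.09 on the log2 scale (95% interval -0.61 to 0.44), and for Adam19 it was -0.15 (95% interval -0.54 to 0.23). For Timp1 it was -0.03 with a wide interval (-1.69 to 1.63), and for Mmp3 it was 0.20 (-1.77 to 2.17). The 95% interval stayed within 1 on the log2 scale in either direction for 33 members and reached beyond it for 8. These intervals are on the log2(scaled FPKM + 1) scale and allow larger ratios of FPKM for low members, such as Adamts4, whose mean was 0.541 scaled FPKM in the LQ-40 group, against 0.552 in the SQ-3 group. On the list of 43 further protease genes Plat was lower in LQ-40 than in Model hearts by 0.90 (adjusted p = 0.0444). In limma 0 of the 34 tested genes of that list were called in SQ-3 against Model and 0 between the compounds, with 7 and 1 at an unadjusted p under 0.05.

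Mmp8 and Mmp9, which neutrophils store in granules, were high in libraries of their own. Mmp9 had 1.73, 0.732 and 5.62 scaled FPKM in LQ-40 libraries 1, 2 and 3 and 0.693, 0.130 and 2.57 in SQ-3 libraries 1, 2 and 3, against 0.216 to 1.01 in Model and 0.211 to 0.420 in Sham libraries. Mmp8, which was not tested, had 1.28, 0.156 and 1.98 scaled FPKM in LQ-40 libraries 1, 2 and 3. In SQ-3 libraries 1, 2 and 3 Mmp8 had 0.156, 0.0709 and 0.326, against 0.218 to 0.443 in Model and 0.0307 to 0.162 in Sham libraries. LQ-40 libraries 1 and 3 thus held the highest Mmp8 values. The summed level of 8 neutrophil markers was 64.5, 6 and 80.9 scaled FPKM in LQ-40 libraries 1, 2 and 3, 6.80 to 14.0 in SQ-3, 6.32 to 13.1 in Model and 7.53 to 22.1 in Sham libraries. Within this list S100a8 and S100a9 carried most of the sum, and Ly6g was at 0 in 8 libraries, Elane in 8 and Mpo in 4. The part of neutrophils in the Mmp8 and Mmp9 values was not tested.

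In the rat cells 35 of the 74 members had at least 1 FPKM in either library and were compared between the 3D culture and the 2D cells. With 1 library each there is no replicate check and no test, and the intervals that follow cover counting error only. The OGD in the name 3D-OGD-MF may denote a treatment of the 3D culture. Such a treatment cannot be told apart from the culture form here, so 3D against 2D names the libraries and not a cause. The libraries held 11910160 reads (3D) and 13262387 reads (2D). Among the markers of the labelled cell types, those of fibroblasts summed to 2571 scaled FPKM in 3D and 2408 in 2D, those of cardiomyocytes to 10.7 and 10.1, and those of macrophages to 21.1 and 27.5. The near-equal fibroblast sums hide moves in both directions. Col1a1 was at 1788 in 3D and 2007 in 2D, and Tcf21 at 5.82 and 13.1. Dcn was at 254 in 3D and 76.7 in 2D, and Pdgfra at 11.8 and 4.01. Markers of cardiomyocytes and macrophages were thus low beside those of fibroblasts, but most were detected. Tnnt2, cardiac troponin T, had 6.81 scaled FPKM in 3D and 6.54 in 2D, while Myl2, a ventricular cardiomyocyte gene, was at 0 in both libraries. Among macrophage markers Lyz2 had 11.6 in 3D and 18.4 in 2D, Cd68 had 5.25 in 3D and 4.05 in 2D, Csf1r had 2.43 in 3D and 3.84 in 2D, and C1qb was at 0 in 3D and 0.136 in 2D.

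Of the 35 members 6 were at least 2-fold higher and 1 was at least 2-fold lower in 3D than in 2D (20% of members; 7.47% of all compared genes were at least 2-fold apart, 5.03% higher and 2.44% lower). The higher members were 5 MMPs and Adamts8. Mmp9 had 10.5 scaled FPKM in 3D and 1.08 in 2D, 385 and 46 reads, a ratio of 9.72 (95% interval 7.15 to 13.5). Mmp12 had 5.70 in 3D and 0.413 in 2D (ratio 13.8, interval 7.26 to 29.6), and Mmp10, stromelysin 2, had 5.14 in 3D and 0.867 in 2D (ratio 5.92, interval 3.64 to 10.1). Mmp3 had 3.11 in 3D and 0.605 in 2D (ratio 5.14, interval 2.85 to 9.95), and Mmp13, the collagenase 3 gene, had 2.80 in 3D and 0.568 in 2D (ratio 4.94, interval 3.01 to 8.48).

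Adamts8 had 14.8 scaled FPKM in 3D and 3.47 in 2D (ratio 4.26, interval 3.53 to 5.17). Adamts5 had 4.75 in 3D and 11.7 in 2D, that is 2.46-fold lower in 3D (interval 2.07 to 2.93). The abundant members lay within 2-fold. Mmp2 had 464 scaled FPKM in 3D and 250 in 2D (ratio 1.86, interval 1.82 to 1.91), and Adam17 had 56.7 in 3D and 29.6 in 2D (ratio 1.92, interval 1.80 to 2.04). Timp1 had 184 in 3D and 120 in 2D (ratio 1.53), Timp2 had 370 in 3D and 397 in 2D (ratio 0.932), and Mmp14 had 293 in 3D and 230 in 2D (ratio 1.28). Adamts4 had 3.16 in 3D and 2.58 in 2D (ratio 1.23, interval 1 to 1.5), and Adam19 had 49.1 in 3D and 41.4 in 2D (ratio 1.19, interval 1.13 to 1.24). Timp4 had 1 read in each library.

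**Figure D4:**
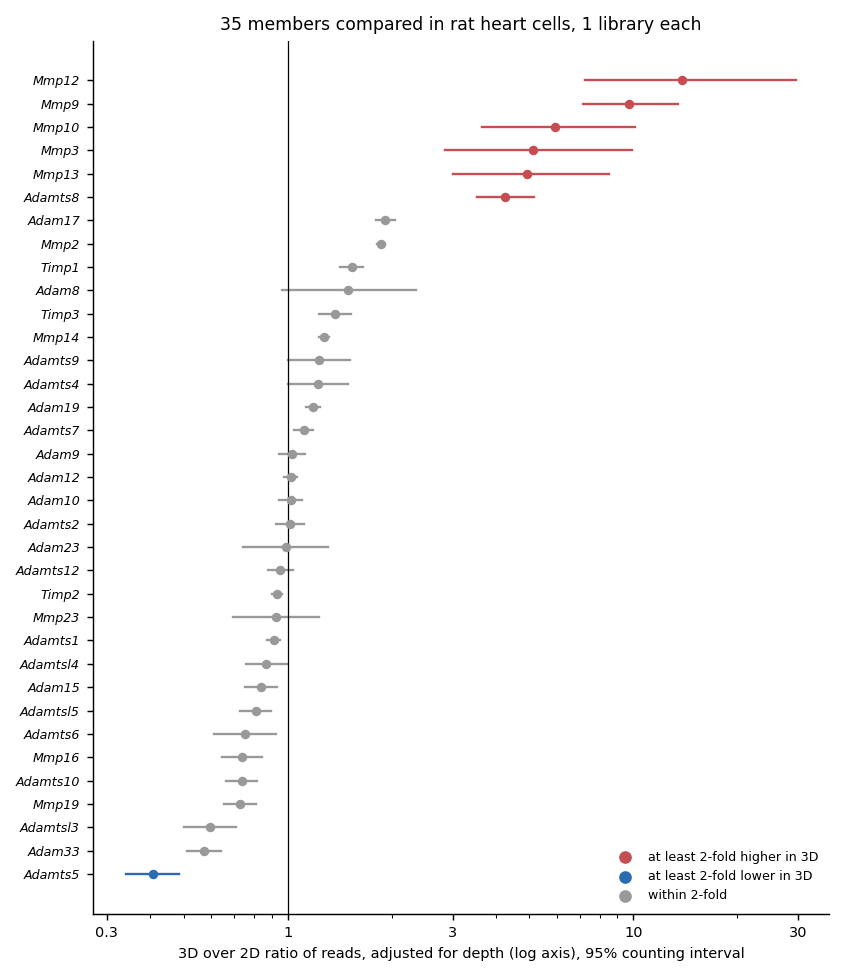
Ratio of reads in the rat 3D culture over the 2D cells, adjusted for depth, on a log axis with 95% counting intervals, for the 35 members compared. The 6 members in red, led by Mmp12 at 13.8 and Mmp9 at 9.72, were at least 2-fold higher in 3D, and Adamts5 in blue was at least 2-fold lower.

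Mmp3, Mmp10, Mmp12 and Mmp13 lie on rat chromosome 8 among other MMP genes that were near silent or did not follow them. Mmp1, Mmp1b, Mmp20 and Mmp27, of which Mmp1 and Mmp1b lie between the 4 genes, had 0 to 3 reads in each library. Mmp8 went the other way at a low level that was not compared, with 4 reads in 3D and 21 in 2D (ratio 0.221, interval 0.0552 to 0.656), and Mmp7 had 4 reads in 3D and 11 in 2D (ratio 0.422, interval 0.0981 to 1.43). The mouse counterparts lie in a cluster of 9 members on chromosome 9 (chr9:7272514-7699585, mm10) that holds Mmp13, Mmp12, Mmp1b, Mmp3, Mmp10, Mmp8, Mmp27, Mmp20 and Mmp7. In mouse hearts 3 of these 9 were tested and 0 were called in Model against Sham, with 2 at an unadjusted p under 0.05 and 2, Mmp12 and Mmp27, called by limma-voom. Mouse promoter windows of this cluster were read because it holds 4 of the 5 MMPs that were at least 2-fold higher in the rat 3D culture, with the limit that they are not the rat promoters. Windows run from 250 bases before to 50 bases after the RefSeq start (GRCm38.p6), and 52 of the 83 members had a window in the RefSeq table. The AP-1 motif TGANTCA, which reads the same on either strand, was found in windows of 7 of the 9 cluster genes. These were Mmp3, Mmp10, Mmp12 and Mmp13, and also Mmp1b, Mmp7 and Mmp20, whose rat counterparts were near silent or did not follow. It was found in 0 of 8 other MMPs with a window, and in 7.8% of 32851 windows of all genes. The 9 cluster genes had 11 windows, so counts of genes and shares of windows are unlike measures. The TATA box letters TATAAA, searched on both strands and not overlapping with the AP-1 letters, were found in 8 of the 9 cluster genes and in 13.6% of all windows. A match describes the letters only and is not a binding site. In the following windows the AP-1 and TATAAA letters are in capitals. Adam19, called in both compound comparisons, is shown with AP-1 letters 131 bases before a start, and another of its windows had none. No AP-1 match was found for Adamts4, the other member so called. Of the 27 tested members with a window 3 had AP-1 letters.
Mmp3 (chr9:7445572-7445871, plus strand): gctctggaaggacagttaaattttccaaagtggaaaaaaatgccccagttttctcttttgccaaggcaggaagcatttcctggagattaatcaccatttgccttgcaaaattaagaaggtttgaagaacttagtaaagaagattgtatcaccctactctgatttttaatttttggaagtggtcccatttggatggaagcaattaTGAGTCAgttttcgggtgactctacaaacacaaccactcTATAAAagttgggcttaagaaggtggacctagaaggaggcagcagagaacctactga
Mmp13 (chr9:7272264-7272563, plus strand): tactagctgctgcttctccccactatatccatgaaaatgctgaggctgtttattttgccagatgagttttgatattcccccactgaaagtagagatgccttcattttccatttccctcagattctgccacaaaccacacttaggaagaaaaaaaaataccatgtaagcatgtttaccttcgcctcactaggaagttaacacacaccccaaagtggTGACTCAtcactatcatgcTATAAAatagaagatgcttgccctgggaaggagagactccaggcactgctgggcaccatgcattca
Adam19 (chr11:46055734-46056033, plus strand): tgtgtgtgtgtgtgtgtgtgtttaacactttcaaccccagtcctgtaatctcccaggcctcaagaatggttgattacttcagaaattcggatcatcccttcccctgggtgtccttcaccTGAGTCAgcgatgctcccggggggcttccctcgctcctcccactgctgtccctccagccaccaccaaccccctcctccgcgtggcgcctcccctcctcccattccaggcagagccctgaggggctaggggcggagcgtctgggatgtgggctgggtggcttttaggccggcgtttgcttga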

How the data were processed

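The authors deposited FPKM values for every gene with the gene length, per the file headers; the library total behind them is not stated. RNA was captured with poly-T beads, per the labels' protocols, which describe 2 preparations, by NEB and with dUTP for strand specificity. Tools listed without roles in the submitters' processing notes were HISAT2 2.0.5, featureCounts 1.5.0-p3 and fastp, with the builds mm10 and Rnor_6.0. Annotation release and strand setting were not given in the sources used here.

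FPKM times gene length, divided by the worth of 1 read in that library, gave whole reads for 100% of values (tolerance 0.02 of a read), and these recovered reads served for depth, for limma-voom and for rat ratios. Mouse FPKM were scaled by the median of ratios over 10422 genes and tested as log2(scaled FPKM + 1) in limma 3.58.1 (R 4.3.3; eBayes with trend; all 12 libraries in a single fit; 10.9 degrees of freedom; two-sided, Benjamini-Hochberg over 13000 genes). Every adjusted p in the text is from that fit unless limma-voom is named. Rat values were scaled over 12109 genes; intervals are exact binomial at 95%, with a floor of 3 reads. The procedure was tested on simulated data. Coordinates of 82 of the 83 members matched GENCODE M21. Named members were the 4 TIMPs, up to 5 members of each subfamily by smallest p in Model against Sham, and members called for a compound; up to 4 further pathway genes a comparison were named by smallest p, and Tll2 and Bsg because they alone fell. Mmp8, Comp, Adam9, Adam11, Adam15 and the rat members were named after their values were seen. The members and lists were chosen with earlier results of these data known. Alternatives were limma-voom with TMM, a replicate block, fits of only the groups compared, unscaled FPKM, quantile normalization, another pseudocount (0.1), a stricter filter (mean of 5 FPKM or more) or none, and each library left out in turn.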

Additional observations from a re-analysis of the deposited data

How the results depend on the processing

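Members called in Model against Sham numbered 26 and 22 to 28 over the removal of each library in turn; requiring a mean of at least 5 FPKM, which leaves 21 members tested, gave 15. In LQ-40 against Model the 2 calls became 1 with that mean, 0 with only the groups compared and 1 to 3 over the left-out libraries. In SQ-3 against Model the 2 calls became 0 with a pseudocount of 0.1, 1 without a filter, 1 with the mean of at least 5 FPKM and 0 to 5 over the left-out libraries. In LQ-40 against Sham the 19 calls became 9 without a filter, 11 with the mean of at least 5 FPKM, 2 with only the groups compared and 7 to 26 over the left-out libraries, while the calls over all genes, 2049 of 13000, became 778 of 29037, 1517 of 6813 and 230 of 13000 in the first 3 of these. In SQ-3 against Sham the 12 calls became 5 without a filter (over all genes 872 of 13000 became 262 of 29037) and 3 to 17 over the left-out libraries. LQ-40 against SQ-3 gave 0 calls among members in every alternative run, and the rat count of 7 ran from 5 to 7. The cause of these differences was not tested, apart from the fewer members tested. No member called in the main analysis changed direction. Replicate numbers did not pair the libraries: deviations from the group means of same-numbered libraries correlated at -0.268 to 0.219 over 18 pairs, 3 of them over 0.1. With the replicate block the counts were 26 for Model against Sham, 2 for each compound against Model, 0 between compounds, 16 for LQ-40 against Sham and 10 for SQ-3 against Sham. Depth limits members near 1 FPKM, since a single read over 1 kilobase contributed 0.0566 to 0.0805 FPKM.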

Other observations

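Some members that missed the filter were apart between Model and Sham hearts at low levels. They were chosen after their values were seen and were not tested in the main fit. The alternative without a filter covered 70 members and called 28 in Model against Sham hearts, 25 higher and 3 lower (over all genes 4346 of 29037). Of these 28 members 24 were also called in the main fit, and the others are not named here. Mmp13, an interstitial collagenase, had 0.0880, 0.306 and 0.377 scaled FPKM in Model hearts, against 0.948, 1.295 and 1.32 in Sham hearts. Mmp16, a membrane-type MMP, had 0.860, 0.882 and 0.943 in Model hearts, against 0.0908, 0.120 and 0.198 in Sham hearts. Adamts17 had 0.827, 0.926 and 1.06 in Model hearts, against 0.201, 0.203 and 0.298 in Sham hearts. Adamts20, a relative of Adamts9, had 0.343, 0.357 and 0.503 in Model hearts, against 0.00869, 0.0612 and 0.0994 in Sham hearts.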
